A study of Glycine max with 4 samples.

Results

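The genes described here are the 150 soybean genes that stood out as higher in the young shoot tip than in the vegetative bud in both genotypes of the study. They were chosen by their measured levels, from 69145 genes in the deposited tables. For each gene 1 transcript model was used, the one with the highest mean over the libraries, and levels were compared as log2(RPKM + 1). RPKM scales the reads of a model to its length in kilobases and to the total of the library, so levels can be compared between genes of different length. A gene qualified if the 2 shoot tip libraries were less than 1 log2 unit apart, the 2 bud libraries were less than 1 apart, and both shoot tip libraries held at least 5 RPKM. Identifiers from 5320 to 12150 on chromosome 3 were left out. Of the 13048 genes that qualified, the 150 with the highest smaller value of the tip minus bud differences of the genotypes were taken, and they are ranked here by that smaller value. The differences between tip and bud are therefore a description of what was chosen, and no test was made on them.

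The study sequenced RNA from Clark five-foliate, a leaf mutant, and Clark standard, its wild-type isoline. Isolines are bred to share most of their genome. The groups were five-foliate shoot tip, standard shoot tip, five-foliate vegetative bud and standard vegetative bud, each from several greenhouse plants 4 weeks old and each represented by 1 library. All groups share the Clark background and the same growth conditions, and with 1 library per group no difference below has a replicate check. The tip libraries held 139769051 alignments in five-foliate and 152791817 in standard, and the bud libraries 103618555 in five-foliate and 97532923 in standard. These totals were recovered from the RPKM values. The tables give identifiers without gene names, and 0 of them matched the reference table of 59048 genes, so no product or role can be given for a gene. For the same reason the tissue labels could not be set against marker genes. Only the first 2 genes are printed by identifier, and the others are called by rank and chromosome.

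A shoot tip holds the apical meristem, the dividing cells from which leaves and stem arise, together with the youngest leaf primordia. A vegetative bud is a shoot in waiting, with its own meristem and enclosed young leaves, so the organs share most of their cell types. Soybean descends from ancestors whose whole genome was duplicated, and many of its genes have a related copy on another chromosome. In RNA from whole organs, a lower proportion of cells of a type and less RNA per cell give the same reading and cannot be told apart.

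The first gene, Glyma14g06980 on chromosome 14, had 97.9 RPKM in the five-foliate shoot tip and 148 RPKM in the standard shoot tip, against 0.263 RPKM in the five-foliate bud and 0.540 RPKM in the standard bud. Both tips lay far above both buds, and the buds rested on 30 reads in five-foliate and 58 reads in standard. The five-foliate level was 372-fold higher in the tip than in the bud, with a 95% exact binomial interval of 261 to 552. In the standard line it was 274-fold higher, with an interval of 212 to 361. All such intervals here compare libraries and cover counting error only. The second gene, Glyma03g33800 on chromosome 3, had 86.5 RPKM in the five-foliate tip and 141 RPKM in the standard tip, against 2.00 and 4.27 RPKM in the five-foliate and standard buds. Its tip level was 43.2-fold higher than the bud level in five-foliate (interval 37.96 to 49.5) and 33.1-fold higher in standard (interval 30.2 to 36.4). The gap between the first gene and the second was the widest between neighbouring ranks.

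Genes ranked 3, 4 and 6 combined a high tip level with a wide tissue difference. The gene ranked 4, on chromosome 17, had 533 RPKM in the five-foliate tip and 465 RPKM in the standard tip, against 14.01 RPKM in the five-foliate bud and 20.7 RPKM in the standard bud. It had the highest five-foliate tip level of the 150. The gene ranked 6, on chromosome 15, had 409 and 488 RPKM in the five-foliate and standard tips, against 19.4 and 27.4 RPKM in the five-foliate and standard buds. The gene ranked 3, on chromosome 13, had 197 and 182 RPKM in those tips and 5.01 and 6.78 RPKM in those buds. In all 3 the five-foliate bud lay below the standard bud, with five-foliate over standard ratios of 0.739, 0.678 and 0.707 for ranks 3, 4 and 6, and none of their intervals reached 1. That direction by any amount was shown by 131 of the 150 and by 68.2% of the 40448 genes that reached 1 RPKM somewhere.

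**Figure D1:**
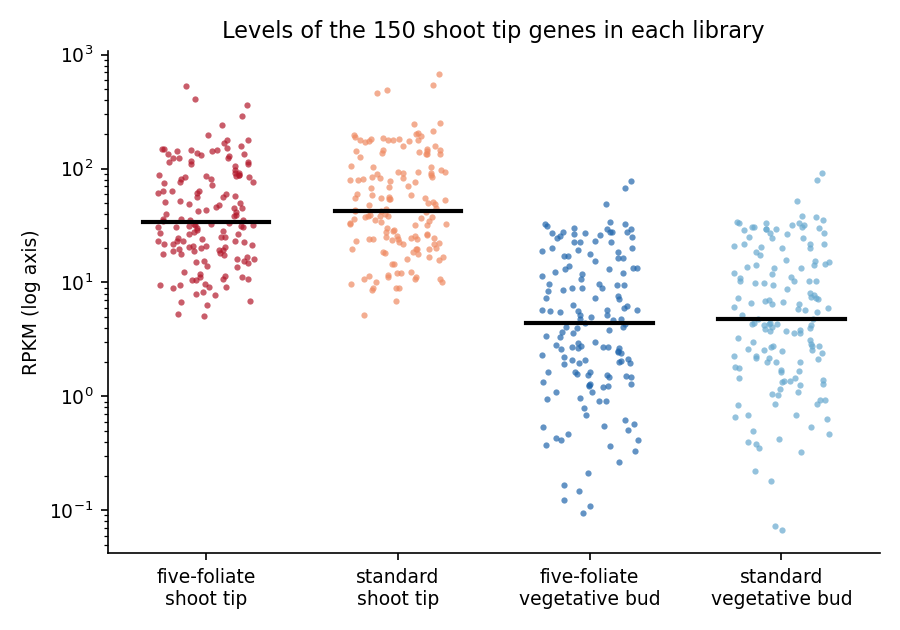
RPKM of the 150 genes in each library on a log axis, 1 point per gene and library, with a black bar at the median. The medians were 34.0 RPKM in the five-foliate tip, 42.8 in the standard tip, 4.37 in the five-foliate bud and 4.77 in the standard bud, and the clouds of tip and bud overlap because genes differ widely in level.

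Over the 150 genes the levels spanned 5.08 to 533 RPKM in the five-foliate tip, with a median of 34.0, and 5.204 to 683 RPKM in the standard tip, with a median of 42.8. They spanned 0.0940 to 77.1 RPKM in the five-foliate bud, with a median of 4.37, and 0.0666 to 92.2 RPKM in the standard bud, with a median of 4.77. Tip and bud ranges thus overlapped across genes, while within each gene both tips lay above both buds. The genes made up 1.25% of the RPKM sum of all models in the five-foliate tip and 1.57% in the standard tip, against 0.191% in the five-foliate bud and 0.222% in the standard bud. Within these sums 31 genes reached 100 RPKM in the five-foliate tip and 38 in the standard tip, against 0 in either bud. The median depth behind a gene was 6146 reads in the five-foliate tip, 8324 in the standard tip, 505 in the five-foliate bud and 537 in the standard bud.

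The tip minus bud difference on the log2(RPKM + 1) scale had a median of 2.43 in five-foliate and 2.65 in standard over the 150 genes. Over the 40448 genes that reached 1 RPKM somewhere, called all genes from here on, the medians were -0.07 in five-foliate and -0.45 in standard. On that scale, which counts of genes past a fold use here, all 150 were at least 4-fold higher in the tip in both genotypes, which the choice fixed, and 0.757% of all genes were. A 2-fold higher tip was seen in 7.65% of all genes in five-foliate, in 8.75% in standard and in 4.6% in both. At least 8-fold in both genotypes was reached on that scale by 25 of the 150 and by 0.109% of all genes. In RPKM without the added 1, folds of 8 or more in both genotypes were reached by 61 of the 150. The share of all genes past that fold was not computed, and such folds are larger where the bud is near 0. The list was thus steep at its head and flat at its end: 6 genes had a smaller difference of 4 or more, and 91 lay under 2.5. The last gene inside had a smaller difference of 2.103 and the first one outside 2.097. The last gene inside had 292 RPKM in the five-foliate tip and 547 in the standard tip, against 67.2 in the five-foliate bud and 80.0 in the standard bud. The first one outside had 37.2 and 43.4 RPKM in the five-foliate and standard tips, against 7.14 and 9.37 RPKM in the five-foliate and standard buds.

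**Figure D2:**
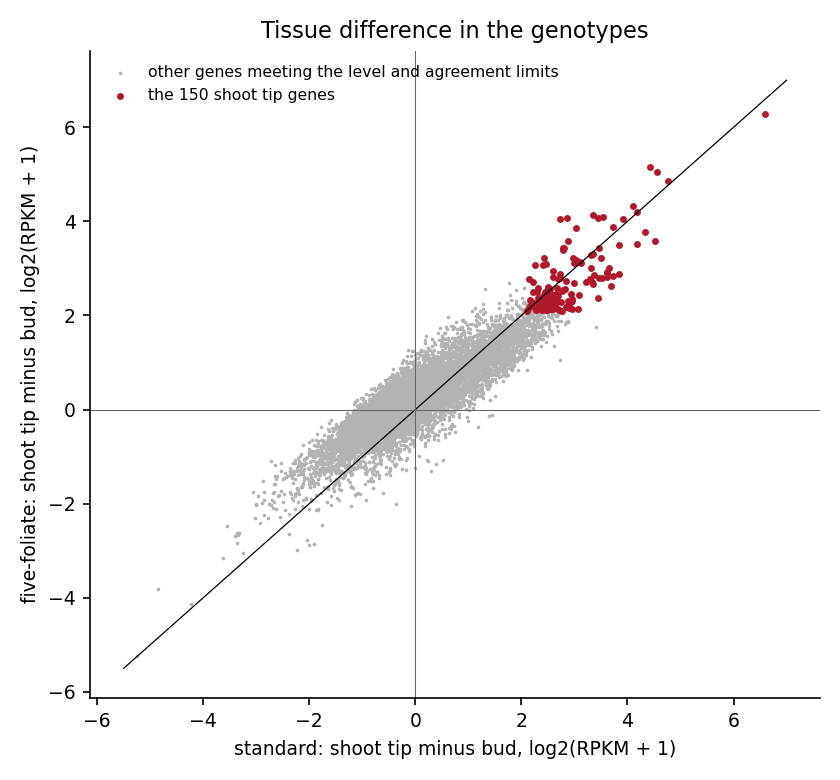
Tip minus bud difference in five-foliate (vertical axis) against standard (horizontal axis), both on the log2(RPKM + 1) scale, for the 13048 qualifying genes, with the 150 in red and a line of equal differences. The grey cloud lies mostly above the line and the red points mostly below it, and 105 of the 150 had the larger difference in standard, against 24.9% of all genes.

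Among genes with a wide enough tissue difference, more were kept out by the agreement limit between genotypes than by the level limit. In all, 236 genes had a smaller difference at least as large as that of the last gene inside. Of the 86 left out, 79 had shoot tips 1 or more log2 units apart, 2 had buds that far apart, 7 were under 5 RPKM in a tip, and 1 lay in the chromosome 3 stretch, with 3 genes in 2 of these classes. In 74 of the 79 the five-foliate tip was the lower one. By any amount it was lower in 25.8% of all genes, and the share among all genes with tips that far apart was not computed. The 79 were also picked by a wide tissue difference, so their direction is a description. The medians of the 79 were 23.1 RPKM in the five-foliate tip and 86.6 RPKM in the standard tip, against 2.15 in the five-foliate bud and 2.45 in the standard bud. The same agreement and level limits were also turned round, for genes higher in both buds, without leaving out the chromosome 3 stretch. Of the 16850 genes that met them, the first 150 had wider differences. Their median smaller difference was 3.41, against 2.40 for the shoot tip genes.

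The genes were also grouped by bud level, a continuous scale cut here at 1 and 20 RPKM. Most genes, 103 of the 150, fell in neither of the groups described next. In 20 genes both buds were under 1 RPKM. Their median was 10.8 RPKM in the five-foliate tip and 12.96 RPKM in the standard tip, against 0.391 in the five-foliate bud and 0.481 in the standard bud. The gene ranked 13, on chromosome 8, had 11.3 RPKM in the five-foliate tip and 14.4 RPKM in the standard tip, against 0.0940 RPKM in the five-foliate bud and 0.0732 RPKM in the standard bud. These bud values came from 15 reads in five-foliate and 11 reads in standard, and the fold had a wide interval, 72.6 to 215 in five-foliate and 110 to 396 in standard. The gene ranked 46, on chromosome 7, had the fewest reads in the standard bud, 8, with 14 in the five-foliate bud. It had 6.29 and 8.89 RPKM in the five-foliate and standard tips, against 0.110 and 0.0666 RPKM in the five-foliate and standard buds. No gene of the 150 was without reads in a bud, the fewest being 11 in the five-foliate library and 8 in the standard library.

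At the other end were 27 genes with at least 20 RPKM in both buds. Their levels in the tip were uniformly high, 110 to 364 RPKM in five-foliate and 127 to 683 RPKM in standard, against 20.04 to 77.1 RPKM in the five-foliate bud and 21.6 to 92.2 RPKM in the standard bud. Their differences lay in a narrow band, 2.10 to 2.57 in five-foliate and 2.19 to 2.87 in standard. The best rank among them was 55. All 27 were lower in the five-foliate tip than in the standard tip, as were 83.3% of the whole list and 25.8% of all genes. Model lengths of the 27 genes were also confined, from 614 to 1686 bases with a median of 897. Lengths in the group with both buds under 1 RPKM ran from 408 to 2245 bases with a median of 1288. The 27 genes lay on 15 chromosomes, so they are not 1 run of neighbours. The grouping uses the measured levels, so the level differences between these groups are set by it, and the lengths are not.

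Between genotypes most of the 150 were lower in the five-foliate line. In the shoot tip 125 of 150 were lower in five-foliate by any amount, where 25.8% of all genes were. In the bud 131 of 150 were lower in five-foliate, where 68.2% of all genes were. The median five-foliate minus standard difference was -0.30 in the tip and -0.15 in the bud, against 0.31 and -0.06 over all genes. The rule held these differences within 1 log2 unit and ranked genes on the same 4 libraries, so the shares are a description of the list. With log2 values centred on the median of each library, which brings the tip median of all genes to 0.00, 136 of the 150 were lower in the five-foliate tip, against 49.8% of all genes. In the bud 121 of the 150 were then lower in five-foliate, against 52.6% of all genes. With upper-quartile scaling, 137 of the 150 were lower in the five-foliate tip, against 44.8% of all genes, and 121 in the five-foliate bud, against 50.7%.

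**Figure D3:**
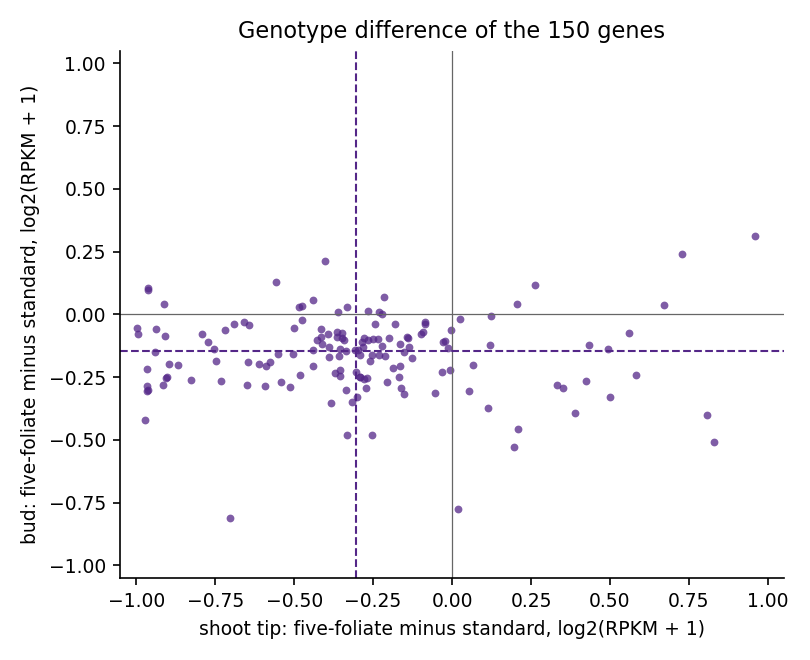
Five-foliate minus standard difference in the shoot tip (horizontal axis) and in the bud (vertical axis) for the 150 genes, on the log2(RPKM + 1) scale, with dashed lines at the medians of -0.30 and -0.15. Points lie mostly in the lower left part, where 111 genes were lower in five-foliate in both tissues. Among all genes 25.8% were lower in five-foliate in the tip and 68.2% in the bud. The share of all genes lower in both was not computed, but it cannot exceed the 25.8% lower in the tip. The spread along the tip axis is wider than along the bud axis.

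On the log2(RPKM + 1) scale, 34 genes had a five-foliate tip lower by 1.5-fold or more (8.42% of all genes did) and 5 had one higher by 1.5-fold or more (24.7% of all genes did). In the bud 2 of the 150 were at least 1.5-fold lower in five-foliate, near the 0.702% of all genes. The gene ranked 10, on chromosome 13, lay at the limit of the rule, with 16.0 RPKM in the five-foliate tip and 32.8 RPKM in the standard tip, against 0.411 and 0.468 RPKM in the five-foliate and standard buds. Its five-foliate over standard ratio was 0.486 in the tip (interval 0.468 to 0.505) and 0.879 in the bud (interval 0.627 to 1.23), so only the tips differed beyond counting error. The gene ranked 39, on chromosome 8, went the other way, with 21.8 RPKM in the five-foliate tip and 10.7 RPKM in the standard tip, against 1.10 and 0.692 RPKM in the five-foliate and standard buds. Its ratio was 2.03 in the tip (interval 1.92 to 2.15) and 1.59 in the bud (interval 1.195 to 2.14).

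By sign, 20 of the 150 were higher in the five-foliate tip and lower in the five-foliate bud, against 52.2% of all genes, and 14 showed the opposite combination, against 9.78%. Beyond counting error the first combination was shown by 12 of the 150, against 21.7% of all genes with recovered reads, and the second by 0 of the 150, against 3.02%.

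The tissue difference was larger in standard in 105 of the 150 with values as deposited, in 131 with centred values (49.5% of all genes) and in 132 with upper-quartile scaling (46.1% of all genes). The tissue differences of the genotypes were within 0.25 log2 units of each other in 70 of the 150, a share not computed for all genes. The five-foliate minus standard gap in tissue difference had a median of -0.15 over the 150, against 0.36 over all genes. In 31 genes the difference was at least 0.5 larger in standard, against 9.99% of all genes, and in 16 it was at least 0.5 larger in five-foliate, against 37.5% of all genes. This gap equals the genotype difference in the tip minus that in the bud, and the highest bud difference of the 150 was 0.313. The grouping therefore sets the direction of the tips in the 31, and largely sets it in the 16. All 31 had the lower tip in five-foliate, with median levels of 20.8 RPKM in the five-foliate tip and 38.4 RPKM in the standard tip, against 2.30 in the five-foliate bud and 2.69 in the standard bud. None of the 16 did, with medians of 32.5 and 23.0 RPKM in the five-foliate and standard tips, against 1.58 and 2.32 RPKM in the five-foliate and standard buds. The widest of these was the gene ranked 45, on chromosome 20, with 57.0 RPKM in the five-foliate tip and 31.7 RPKM in the standard tip, against 2.48 RPKM in the five-foliate bud and 3.95 RPKM in the standard bud. Its tip level was 22.9-fold higher than the bud level in five-foliate (interval 20.9 to 25.2) and 8.01-fold higher in standard (interval 7.42 to 8.65). The gene ranked 33, on chromosome 10, showed the same order of libraries, with 43.2 and 24.3 RPKM in the five-foliate and standard tips, against 1.65 and 2.496 RPKM in the five-foliate and standard buds.

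Apart from the chromosome 3 stretch that was left out, position took no part in the choice. The 150 genes lay on all 20 chromosomes and on no unplaced scaffold. Chromosome 13 held 19 of them, or 2.26 per 100 of its qualifying genes, and chromosome 15 held 12, or 1.91 per 100, where the overall figure was 1.15 per 100. Chromosome 16 held 2, or 0.449 per 100, and chromosome 7 held 3, or 0.450 per 100. These counts are small, and neighbouring copies within a chromosome are not independent of each other.

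**Figure D4:**
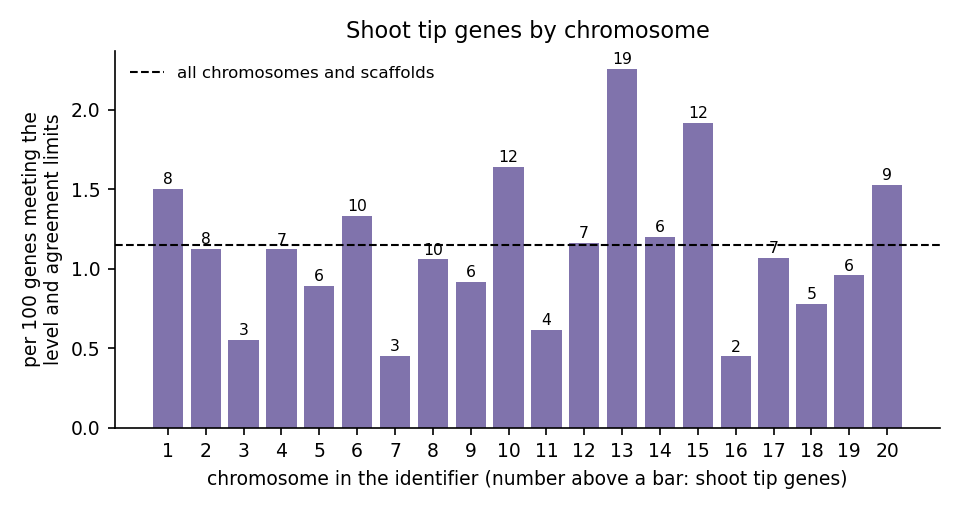
Number of the 150 genes per 100 qualifying genes on each chromosome, with the gene count above each bar and a dashed line at the overall 1.15 per 100. The bars run from 0.449 on chromosome 16 to 2.26 on chromosome 13.

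Most of the 150 stood alone along the chromosome. With genes put in the order of their identifiers, 16 lay within 15 places of another of the 150, in 7 runs, and 3 pairs were direct neighbours. How many of 150 genes drawn without regard to level would lie as close was not computed, so these counts do not show clustering. One direct pair was the first gene and the gene ranked 16, on chromosome 14. The gene ranked 16 had 88.7 RPKM in the five-foliate tip and 87.5 RPKM in the standard tip, against 4.09 RPKM in the five-foliate bud and 7.71 RPKM in the standard bud. Its model had 2561 bases and that of the first gene 1101, and their bud levels differed widely while their five-foliate tip levels were close. Genes next to one of the 150 without belonging to them numbered 293, of which 211 reached 1 RPKM in a library. Of these 211, 13 (6.16%) were at least 2-fold higher in the tip in both genotypes, where 4.6% of all genes were. Their median tip minus bud difference was -0.02 in five-foliate and -0.28 in standard, against -0.07 and -0.45 over all genes.

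Both runs of 3 genes, on chromosomes 13 and 15, resembled each other in reverse order. On chromosome 13 the genes ranked 38 and 36 were neighbours and the gene ranked 61 lay 10 places further on. On chromosome 15 the gene ranked 81 came first and the neighbours ranked 95 and 35 lay 13 and 14 places further on. The gene ranked 38 had 20.6 and 38.4 RPKM in the five-foliate and standard tips, against 2.10 and 2.57 RPKM in the five-foliate and standard buds. The gene at the matching place, ranked 35, had 24.4 and 47.7 RPKM in those tips, against 2.59 and 2.98 RPKM in those buds. In both genes the standard tip was the highest library and the five-foliate bud the lowest.

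The next pair, ranked 36 and 95, had 31.3 and 31.995 RPKM in the five-foliate tip and 54.9 and 53.3 RPKM in the standard tip. Their buds were farther apart, with 3.61 and 5.69 RPKM in five-foliate and 3.87 and 5.99 RPKM in standard. The pair ranked 61 and 81 had 168 and 179 RPKM in the five-foliate tip and 200 and 207 RPKM in the standard tip, against 29.6 and 33.9 RPKM in the five-foliate bud and 33.2 and 38.1 RPKM in the standard bud. Model lengths were 1043 and 1015 bases in the pair ranked 38 and 35, 895 and 890 in the pair ranked 36 and 95, and 877 and 663 in the pair ranked 61 and 81. So the levels of the last pair were close although their models differ in length.

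The likeness went beyond the 150. The next gene past rank 61 on chromosome 13 had 232 and 359 RPKM in the five-foliate and standard tips, against 66.0 and 82.6 RPKM in the five-foliate and standard buds. The next gene past rank 81 on chromosome 15 had 206 and 297 RPKM in those tips, against 67.6 and 83.5 RPKM in those buds. Neither reached the list, since their five-foliate differences were 1.80 and 1.59. The stretches compared held 14 genes on chromosome 13 and 17 on chromosome 15, and 4 genes in each were at least 2-fold higher in the tip in both genotypes. These stretches were looked at because they held runs of 3, and their sequences were not compared. How the authors counted reads that match several places is not given in the sources used here, so how far like levels reflect shared reads was not tested.

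**Figure D5:**
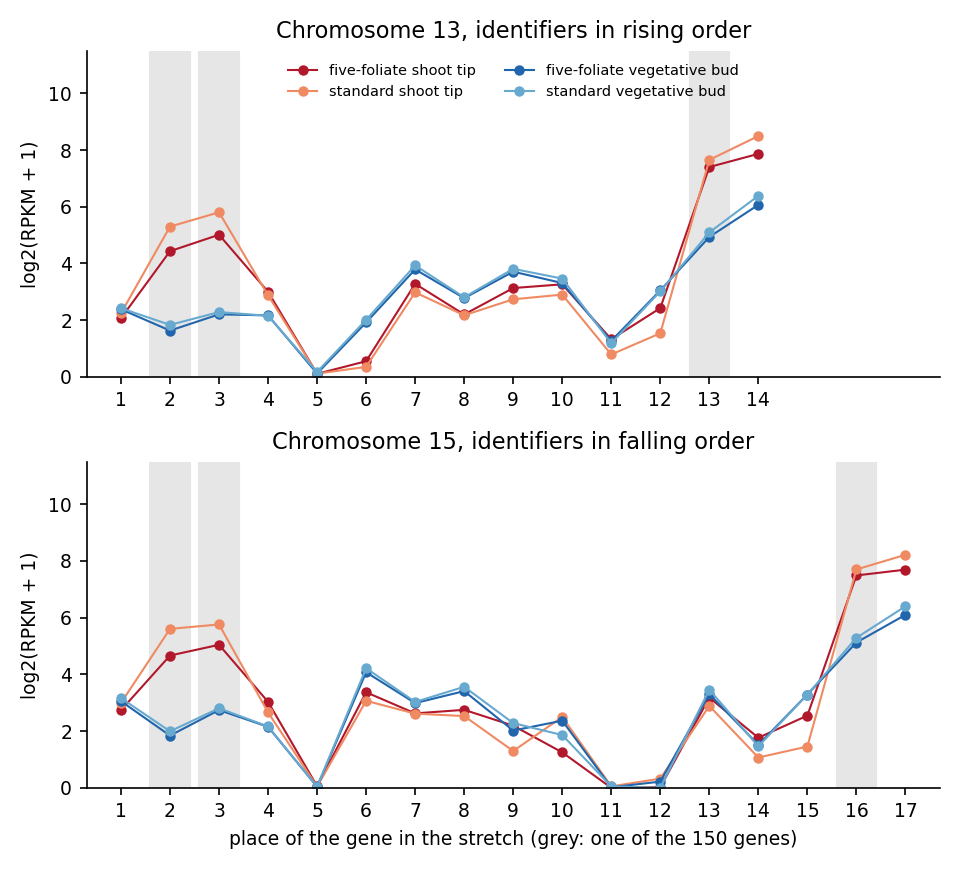
Level on the log2(RPKM + 1) scale of each gene in the stretch of 14 genes on chromosome 13 (identifiers rising) and of 17 genes on chromosome 15 (identifiers falling), 1 line per library, with the genes that belong to the 150 shaded. In both panels the tips stand above the buds at the 2nd and 3rd gene and at the last 2 genes, and the genes between them reach at most 17.6 RPKM in any library.

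Like levels were also seen for single genes on different chromosomes. Taking the largest difference over the 4 log2 values as the measure, 40 pairs of the 150 were each other's nearest, and 11 of these pairs were within 0.1 in every library. All 11 lay on different chromosomes, but the 150 are spread over 20 chromosomes, so most pairs among them do. The 150 were chosen for wide tissue differences that are alike in many of them. The number of such close pairs among other genes was not computed. The closest were the genes ranked 108 on chromosome 12 and 111 on chromosome 9. They had 133 and 132 RPKM in the five-foliate tip, 178 and 178 RPKM in the standard tip, 27.2 and 27.1 RPKM in the five-foliate bud and 29.0 and 29.2 RPKM in the standard bud, with models of 1404 and 774 bases. The pair ranked 87 on chromosome 1 and 101 on chromosome 9 also had long models of like length, 3776 and 3963 bases. It had 48.5 and 49.5 RPKM in the five-foliate tip, 82.4 and 85.2 RPKM in the standard tip, 8.94 and 9.42 RPKM in the five-foliate bud and 9.93 and 10.2 RPKM in the standard bud. In other close pairs the models were unlike, as in ranks 93 and 97, with 1027 and 3897 bases. The pairs were found on the same libraries that ranked the list, and their sequences were not compared. No gene of the 150 had the same reads in all 4 libraries as a model of another gene.

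The models of the 150 genes were shorter at the median than those of the qualifying genes. The median was 1086 bases, against 1399 for the 13048 qualifying genes and 1270 for all genes. Lengths from 600 to under 1200 bases made up 52.7% of the 150, against 28.7% of the qualifying genes. Models of 2000 bases or more made up 11.3%, against 24.1%. Short models under 600 bases made up 6.67%, against 10.6%. The difference in length was not tested, and across the 150 the length had a Spearman correlation of -0.26 with the log2 mean tip level and of 0.09 with the smaller tissue difference (n = 150 genes in the same libraries).

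A single transcript model was listed for 125 of the 150 (83.3%, against 72.9% of the qualifying genes and 84.1% of all genes). Of the 25 with several, 22 had the same leading model in all 4 libraries. The share of the chosen model in the gene's summed RPKM moved by a median of 1.01 percentage points over the libraries. The widest movement, 8.35 points, belonged to the gene ranked 37 on chromosome 2. Its chosen model held 52.5% of the gene's RPKM in the five-foliate tip and 54.6% in the standard tip, against 46.3% in the five-foliate bud and 48.2% in the standard bud. It was the single gene whose leading model differed between tissues in both genotypes. In the genes with 2 models the chosen one held a median of 52.4% in the tips and 52.5% in the buds. The gene ranked 120 had the least even models, with 75.8% in the five-foliate tip and 73.0% in the standard tip, against 70.8% in the five-foliate bud and 71.5% in the standard bud. Reads in shared exons can count for each model, so a share near equality says little about which transcript is present.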

How the data were processed

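The authors deposited RPKM values per gene model in 2 tables, 1 for each tissue, per the file headers. Reads were mapped with Bowtie, per the submitters' processing notes. The version of Bowtie, the build, the annotation and how reads that match several places were counted were not given in the sources used here. There are 78773 models in each table, and 708957 rows without an identifier and 7 empty columns of the bud table were dropped.

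Whole reads, model lengths and library totals were recovered from the RPKM values: of 62593 models with 4 values above 0, 99.99% gave whole reads within 0.0005 reads, against 0% of 3000 models with shifted values. Where several lengths gave whole reads the shortest was taken, so single lengths and read numbers can be too low by a whole factor. In a model of 1 kb, 3 reads correspond to 0.0215 RPKM in the five-foliate tip, 0.0196 in the standard tip, 0.0290 in the five-foliate bud and 0.0308 in the standard bud. The steps were tested on simulated data. Reads entered the intervals and lengths alone, and other values used the deposited RPKM with a pseudocount of 1, which understates changes of low genes.

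With 1 library per group no test was made. Intervals are 95% exact binomial (Clopper-Pearson) intervals. Members and lists were chosen with earlier results of these data known. The rule for named genes was to print the 2 genes ranked highest where identifiers have no names, and the gene lists by product could not be applied. Alternatives were other pseudocounts, level limits, agreement limits, scalings, rankings and a sum over models. The scripts ran under Python 3.11.15, with tables handled in pandas 2.3.3, arrays in numpy 2.4.6, intervals from SciPy 1.17.1 and plots from matplotlib 3.10.9.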

Additional observations from a re-analysis of the deposited data

Results flagged for a closer look

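In 12 of the 150 genes the five-foliate level was above the standard level in the shoot tip and below it in the bud, both beyond counting error, so the genotypes differed in opposite directions between tip and bud. This difference was not tested, since every group is a single library. The best rank among them was 3, and their medians were 32.9 RPKM in the five-foliate tip and 24.4 RPKM in the standard tip, against 2.07 RPKM in the five-foliate bud and 3.12 RPKM in the standard bud. The same combination was shown by 21.7% of all genes with recovered reads, and the median genotype difference of all genes has the same signs, 0.31 in the tip and -0.06 in the bud. With values centred on the library median, 8 of the 12 kept both signs and 4 were lower in the five-foliate tip, and with upper-quartile scaling 7 kept both and 5 were lower there. The opposite combination was shown beyond counting error by 0 of the 150, against 3.02% of all genes, and by sign alone the numbers were 20 and 14 of the 150.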

How the results depend on the processing

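Of the 150 genes, 89 were chosen again with no agreement limit, and 100 to 147 under the other 10 alternatives (100 with a limit of 0.5, 104 with a pseudocount of 5 or a level limit of 20 RPKM). The median smaller difference of the genes chosen, 2.40, was 2.62 at a pseudocount of 0.1, 1.96 at one of 5, 2.23 with a level limit of 20 RPKM, 2.25 with an agreement limit of 0.5 and 2.73 with none. The chosen genes higher in the five-foliate tip, 25, numbered 16 with a pseudocount of 5 and 14 with a level limit of 20 RPKM, and 19 to 27 otherwise. These settings rank or admit other genes by construction. The 16 genes in runs were 6 when a run allowed gaps of at most 5 places, a setting chosen after seeing the data that keeps the same 150 genes. The other 38 values stayed within 1.5 times the count or within the counting interval. No paired analysis was possible because each group has 1 library and the titles number the tissues. For the same reason no replicate could be left out. Depth limits the folds of genes under 1 RPKM in the buds.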
